A study of Mus musculus with 6 samples.

Results

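Interferon-induced genes are the set of genes that cells switch on when they sense interferon, and 35 of them were followed here across the cell types of the mouse aorta. The genes were taken as a fixed list by name, and 34 of the 35 were found among the 27998 genes of the deposited matrices; Mx2 is not analysed here. The study compared aortas of C57B/6J mice, aged 18 weeks, on a normal diet (3 samples labelled Control) and on a high-fat diet (3 samples), by droplet single-cell RNA sequencing. Each sample was read as counts of unique molecular identifiers (UMIs, tags that mark single RNA molecules) per gene and cell. All 6 samples shared the strain, age and tissue and differed by diet alone as far as the labels say, and what the diet held and how long it was given is not stated in the sources used here. Nothing in the labels says whether a sample is 1 mouse or a pool, or whether the samples were prepared on separate days, so the p-values below measure only the spread between these samples.

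Type I interferons (IFN-alpha and IFN-beta) act through the receptor chains Ifnar1 and Ifnar2 and bring together a complex, with Stat2 and Irf9 among its parts, that binds the interferon-stimulated response element (ISRE) in front of its target genes. Type II interferon (IFN-gamma), made mainly by T and NK cells, acts through Ifngr1 and Ifngr2 and on genes with a gamma-activated site (GAS), with Irf1 as an early target. The listed genes fall into transcription factors that carry the signal on (Irf1, Irf7, Irf9, Stat2), sensors of viral RNA (Ifih1, Ddx58, Ddx60), effectors that act on RNA or nucleotides (the Ifit and Oas families, Rsad2, Cmpk2), the ubiquitin-like Isg15 with its protease Usp18, the Mx GTPases, membrane proteins that restrict enveloped viruses (Bst2 and the Ifitm family), GTPases that act on vacuoles holding microbes (Gbp2, Gbp3, Igtp, Iigp1), the chemokine Cxcl10, and other effectors (Ifi35, Ifi44, Xaf1, Rtp4, Parp14). Most cells transcribe these genes at a low level without infection, and many common laboratory mouse strains carry a defective Mx1 gene.

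Promoters of the listed genes were searched for the elements through which interferon acts. Stretches with matches are printed for some of the genes on which the results below turn. RefSeq promoters (GRCm38.p6, 250 bases before to 50 bases after the start of transcription) matched 28 of the 35 genes by symbol. The ISRE core was searched as GAAANNGAAA on both strands, so also as TTTCNNTTTC, and stood in 17 of these 28 genes (60.7%), against 3.99% of 27025 genes with a promoter of the same length. The GAS core TTCNNNGAA, which reads the same on both strands and can overlap an ISRE match, stood in 7 of 28 (25%), against 9.55% of all genes. Each stretch below runs 5′ to 3′ on the gene's strand from 20 bases before the first match to 20 bases after the last, or to the start of transcription if that came first, with matches in capitals.
Isg15 (chr4:156200855-156200916, minus strand): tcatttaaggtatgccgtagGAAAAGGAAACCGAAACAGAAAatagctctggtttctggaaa
Ifit1 (chr19:34640765-34640833, plus strand): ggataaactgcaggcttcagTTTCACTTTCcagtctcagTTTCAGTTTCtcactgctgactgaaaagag
Ifit3 (chr19:34583353-34583436, plus strand): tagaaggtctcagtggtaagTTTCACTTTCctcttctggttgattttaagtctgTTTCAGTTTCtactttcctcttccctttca
Rsad2 (chr12:26456543-26456592, minus strand): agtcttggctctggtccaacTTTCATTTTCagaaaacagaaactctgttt
Oas1a (chr5:120907526-120907643, minus strand): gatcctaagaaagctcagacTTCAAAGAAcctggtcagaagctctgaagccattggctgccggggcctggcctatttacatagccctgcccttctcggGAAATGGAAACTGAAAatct
Ddx60 (chr8:61928014-61928086, plus strand): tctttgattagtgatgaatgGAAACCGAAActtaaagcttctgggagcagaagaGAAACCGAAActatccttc
Gbp2 (chr3:142620584-142620633, plus strand): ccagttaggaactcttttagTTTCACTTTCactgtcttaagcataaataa
Igtp (chr11:58199491-58199551, plus strand): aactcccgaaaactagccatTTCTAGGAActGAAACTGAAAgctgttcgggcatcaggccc
Bst2 (chr8:71537567-71537628, minus strand): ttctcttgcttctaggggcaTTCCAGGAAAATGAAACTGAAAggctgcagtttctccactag
Irf1 (chr11:53769904-53769952, plus strand): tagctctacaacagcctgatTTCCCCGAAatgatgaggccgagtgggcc

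Isg15 carried 3 overlapping ISRE matches, beginning 78, 72 and 66 bases before the start of transcription. Ifit1 and Ifit3 each held 2 separate matches on the reverse strand, and Gbp2 held 1, beginning 59 bases before the start. Irf1 held a GAS match and no ISRE match. Igtp, Oas1a and Bst2 held matches to both elements, and in Bst2 the GAS match overlapped the ISRE. No match to either element lay in these windows for Ifi44, Oasl1, Oasl2, Irf7, Xaf1, Cmpk2, Irf9 or Ifitm1. A match is a stretch of letters and not a site shown to be bound.

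The files held 62838 cells, of which 58034 were used after filters on genes, mitochondrial counts and doublets. Samples gave 6429 to 16062 used cells with a median of 3982 to 5962 UMIs. Cells were assigned to types by marker genes, none of which is a listed interferon-induced gene; 11 types had at least 20 cells in every sample, among them 2450 endothelial cells, 6222 macrophages, 19308 fibroblasts, 12474 smooth muscle cells and 740 mesothelial cells. Each type is a range on a marker score and not a cluster, and for endothelial cells 215 lay just inside the cut and 138 just outside. Each sample held barcodes with 2 suffixes, and the cells of each suffix are called well 1 and well 2 here. That these were separate gel-bead wells was inferred from the suffix alone, and the labels do not say what they were. Well 1 of control 3 gave 624 used cells, the fewest of the 12 wells. Of 60528 distinct barcodes, 2051 were found in more than 1 sample and 225 in both wells of a sample. B cells made up 26.5% of control 3 and 14% of control 2, against 0.327% to 3.72% elsewhere. The wells of 1 sample differed in these genes by up to 3.49 times in macrophages, so the pattern by well is given before the diet comparison.

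Endothelial cells, macrophages and mesothelial cells carried most of the interferon-induced genes at a high level, and smooth muscle cells had the most genes below the mean of the other types. UMIs were summed per sample and cell type, and levels are given as CPM, the gene's UMIs scaled to a total of 1000000. Each type was tested against the mean of the other types with edgeR's quasi-likelihood test, with the sample as a block and adjustment over all genes (Benjamini-Hochberg, threshold 0.05). In endothelial cells 30 of the 33 genes tested were higher and 1 was lower, where 26.0% of all genes were higher and 20.7% lower; the median log2 difference was 0.97 for the listed genes and -0.00 for all genes. In macrophages 25 were higher and 2 lower (all genes 29.7% and 28.5%; median 0.80), and in mesothelial cells, which line the outer surface of the vessel and body cavities, 20 were higher and 0 lower (25.7% and 19.8%; median 0.77). In smooth muscle cells 0 were higher and 31 lower (36.4% and 25.9%; median -1.66). Mx1 was too sparse to test.

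The other types were mixed. B cells had 8 genes higher and 18 lower (all genes 30.9% and 34.7%), T cells 4 and 17 (27.5% and 32.9%), fibroblasts 7 and 9 (31.9% and 22.7%), and lymphatic endothelial cells 7 and 8 (17.4% and 15.8%). Schwann cells, the glia of nerves in the vessel wall, had 7 higher and 4 lower (13% and 13.4%), pericytes 5 and 1 (11.3% and 10.2%), and the erythroid cells left after red cell lysis 6 and 0 (14.1% and 3.98%). In the erythroid cells, 7 erythroid markers summed to between 562179 and 743404 CPM, so levels of all other genes there depend on scaling more than elsewhere. By mean CPM the lowest of the 11 types was the erythroid cells for 15 of the 34 genes, smooth muscle cells for 7 and B cells for 6.

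**Figure D1:**
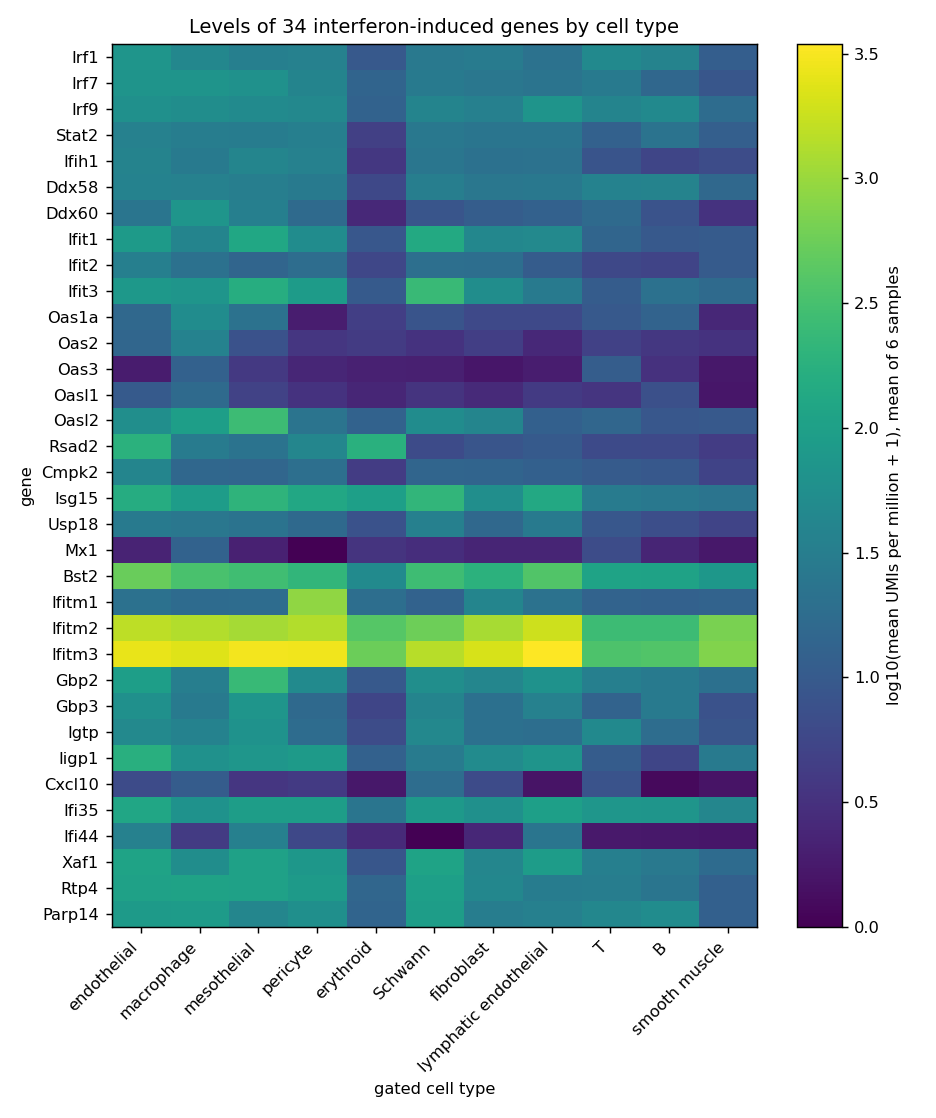
Mean level of each of the 34 interferon-induced genes (rows, grouped by role) in each marker-gated cell type (columns), as log10 of CPM plus 1, averaged over 6 samples. Colours compare cell types along a row; the lowest mean lies in erythroid cells for 15 rows and in smooth muscle for 7, and the highest in endothelial cells for 10 and in macrophages for 8.

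Among the transcription factors, Irf7, which amplifies the type I response, stood at 66.8 ± 38.6 CPM (SD, n = 6 samples, here and below) in macrophages and 66.5 ± 15.1 in endothelial cells, levels that overlapped between samples, against 7.98 in smooth muscle. Irf1 was highest in endothelial cells (68.2 ± 11.6) and next in T cells (46.9 ± 7.46). Irf9 was highest in lymphatic endothelial cells (66.2 ± 21.5) and Stat2, its partner, in endothelial cells (34.6 ± 6.42), each overlapping the next type. None of these 4 genes singled out a cell type in every sample.

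Of the RNA sensors, Ddx60, a helicase linked to RIG-I signalling, had its highest mean in macrophages. It stood at 68.6 ± 18.0 CPM in macrophages, 32.9 ± 15.6 in mesothelial cells and 2.29 in smooth muscle cells, a log2 difference of macrophages from the other types of 2.89 (SE 0.13, edgeR adjusted p = 4.85e-31). Ifih1 (MDA5) was instead highest in mesothelial cells at 40.4 ± 17.5 and in endothelial cells at 37.3 ± 14.8. Ddx58 (RIG-I) was level across B cells (37.0 ± 19.8), endothelial cells (36.2 ± 8.19) and T cells (35.8 ± 15.2).

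The effectors that act on RNA were divided by cell type. The oligoadenylate synthetases, which make the messenger that activates RNase L, were highest in macrophages: Oas1a stood at 52.3 ± 27.3 there, Oas2 at 35.8 ± 13.6 and Oas3 at 11.7 ± 6.09, with log2 differences of 3.18 (SE 0.15, edgeR adjusted p = 1.14e-29), 3.45 (SE 0.17, edgeR adjusted p = 2.78e-28) and 2.94 (SE 0.24, edgeR adjusted p = 1.12e-17). Oas3 was also higher in T cells by 2.80 on the log2 scale (SE 0.34) and lower in endothelial cells (-1.64, SE 0.54, edgeR adjusted p = 0.00885). The related Oasl2 had its peak in mesothelial cells, at 263 ± 41.6 against 96.4 ± 46.2 in macrophages, and these 2 types did not overlap in any sample. Reads of the Oas and Ifit families can be shared between near-identical copies, so the split within a family is uncertain.

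Rsad2 (viperin, a radical enzyme that makes a chain-terminating nucleotide) and Cmpk2, the nucleotide kinase next to it on chromosome 12, were highest in endothelial cells. Rsad2 stood at 183 ± 48.7 in endothelial cells, with 229, 145 and 182 CPM in the controls and 237, 191 and 111 on high-fat diet. Its level was 3.31 ± 2.32 in smooth muscle cells, and the endothelial log2 difference was 3.83 (SE 0.17, edgeR adjusted p = 1.52e-27). Cmpk2 stood at 39.8 ± 14.9 in endothelial cells (log2 difference 1.78, SE 0.14). Rsad2 also reached 176 ± 99.2 in the erythroid cells. The 8 endothelial markers summed there to 133 to 238 CPM, against 5517 to 6553 in endothelial cells. Where the Rsad2 RNA of the erythroid cells came from was not tested.

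Of the Ifit genes, whose products bind viral RNA, Ifit1 and Ifit3 had their highest means in 2 small types and Ifit2 in endothelial cells (33.0 ± 13.1 CPM). Ifit3 stood at 246 ± 248 in Schwann cells and 161 ± 79.2 in mesothelial cells, and Ifit1 at 138 ± 112 and 126 ± 74.7. The Schwann values of Ifit3 ran from 112 to 742, so the spread was as large as the mean. Isg15 followed the same order, with 211 ± 153 in Schwann cells, 200 ± 115 in mesothelial cells and 155 ± 41.3 in endothelial cells, against 88.8 in macrophages and 22.3 in smooth muscle. Against the mean of the other types Isg15 in macrophages did not pass (log2 difference 0.02, SE 0.17, edgeR adjusted p = 0.949), though the Oas genes there did.

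The membrane restriction factors had their highest levels in cells of vessels. Bst2 (tetherin) stood at 533 ± 75.0 in endothelial cells, and Ifitm2 and Ifitm3 were highest in lymphatic endothelial cells at 1849 ± 136 and 3453 ± 467. Ifitm1 was highest in pericytes, at 890 ± 499 against 39.9 ± 18.7 in fibroblasts, the next type, with no overlap in any sample (log2 difference 5.43, SE 0.18, edgeR adjusted p = 5.62e-32). The 3 Ifitm genes lie together and share sequence, so reads may be split between them.

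The vacuole-directed GTPases were also divided. Gbp2 was highest in mesothelial cells, at 238 ± 41.1 against 95.3 ± 7.66 in endothelial cells, and Iigp1 in endothelial cells, at 171 ± 34.3 against 83.4 ± 34.6 in pericytes; in both cases the 6 samples of the 2 types did not overlap. Gbp3 (69.1 ± 9.11) and Igtp (61.7 ± 19.96) had their highest mean in mesothelial cells too, with overlap. Gbp2 was lower in macrophages than in the other types (-0.41, SE 0.16, edgeR adjusted p = 0.0292). Of the remaining genes, Ifi44 was highest in endothelial (34.6 ± 16.9), mesothelial (33.9 ± 15.6) and lymphatic endothelial cells (22.4 ± 12.4), with 0.614 in smooth muscle. Rtp4 was alike in macrophages (109 ± 51.0), mesothelial (104 ± 51.4) and endothelial cells (103 ± 28.1). Cxcl10 was sparse everywhere, at 17.7 ± 27.2 in Schwann cells and 9.55 ± 5.65 in macrophages.

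Within the endothelium, most of the genes that could be tested were higher in cells with capillary markers than in cells with arterial markers. Endothelial cells were divided by marker scores into a capillary-like group of 1686 cells and an arterial-like group of 448, and the rest fell in neither. The comparison was chosen after levels had been seen and was made within samples. The vessel each cell came from was not observed. Of the 28 genes that could be tested, 22 were higher in the capillary-like cells and 0 lower with edgeR, where 15.7% of 7501 genes were higher and 16.8% lower; the median log2 difference was 0.77, against 0.00 for all genes. With each sample left out in turn, 19 to 23 genes were called higher and 0 lower. Oas1a, Oas2, Oas3, Oasl1, Mx1 and Cxcl10 were too sparse to test.

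Rsad2 showed the largest difference of those tested, at 269 ± 67.2 CPM in capillary-like and 19.6 ± 13.1 in arterial-like cells (log2 difference 3.91, SE 0.21, edgeR adjusted p = 5.53e-12), higher in 6 of 6 samples. Cmpk2 followed at 53.3 ± 20.2 against 12.9 ± 8.62 (1.72, SE 0.28, edgeR adjusted p = 4.05e-05), then Irf7 at 84.8 ± 23.2 against 26.4 ± 14.6 (1.63, SE 0.23, edgeR adjusted p = 6.49e-06) and Usp18 at 33.2 ± 16.4 against 10.8 ± 6.91 (1.52, SE 0.28, edgeR adjusted p = 0.000108). Isg15 differed less, at 176 ± 44.9 against 98.4 ± 35.7 (0.88, SE 0.14). Igtp, Oasl2, Ifih1, Ddx58, Ifitm1 and Ifitm2 did not pass. The capillary-like cells were sequenced less deeply, at a median of 3132 UMIs against 4462 in the arterial-like cells.

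**Figure D2:**
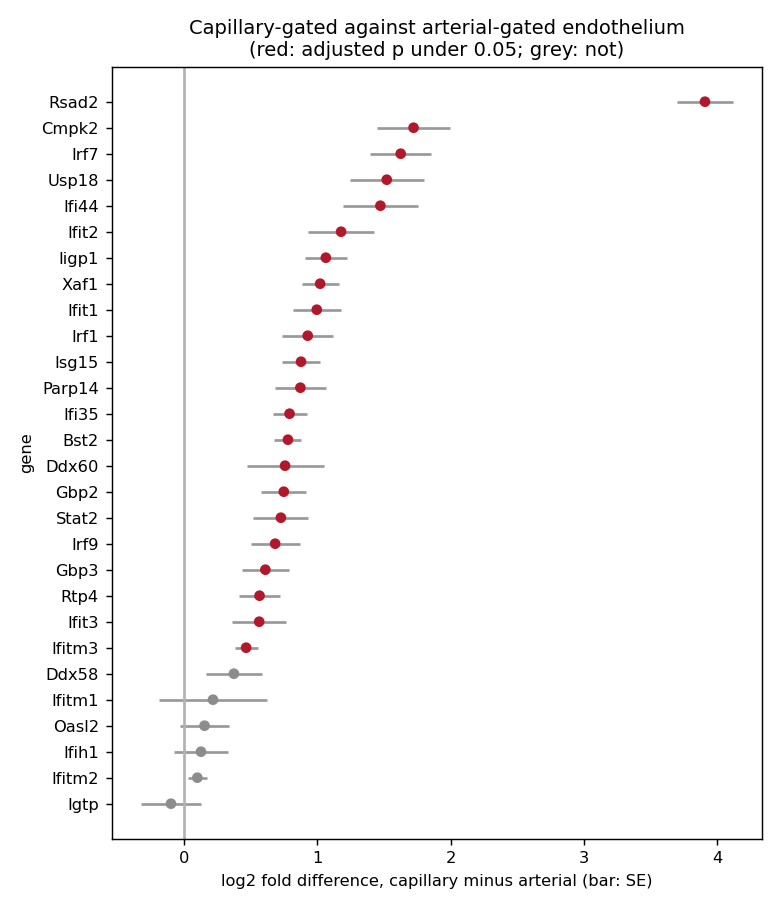
Log2 difference (capillary-like minus arterial-like endothelial cells, x axis) of 28 interferon-induced genes (y axis), with bars of 1 SE; red points passed the adjusted threshold of 0.05. Rsad2 stands apart at 3.91 and 22 of the 28 points are red, all to the right of 0.

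Samples of the same diet differed widely in these genes, and did so together across cell types. To follow this, the UMIs of 29 genes were summed, leaving out Irf1 and the abundant or cell-type-bound Bst2 and Ifitm1, Ifitm2 and Ifitm3. In macrophages the sum was 1494, 949 and 841 CPM in controls 1, 2 and 3, and 1481, 2111 and 735 in high-fat diet samples 1, 2 and 3. Control 1 and high-fat samples 1 and 2 were the 3 highest, and high-fat sample 3 was below every control. The same 3 samples were the highest in 9 of the 11 cell types, all but Schwann and erythroid cells.

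In fibroblasts the sum was 815, 548 and 571 CPM in the controls and 786, 999.9 and 490 on high-fat diet. Smooth muscle cells gave 377, 214 and 167 against 293, 465 and 187. Endothelial cells, whose level is highest of these, varied least, with 2009, 1364 and 1561 in the controls against 2159, 2123 and 1450. Single genes followed the sum: Ifit3 in macrophages stood at 86.4, 26.8 and 21.3 in the controls and at 93.4, 173 and 19.5 on high-fat diet. Of the 29 genes, 22 had their highest macrophage value in high-fat sample 2.

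**Figure D3:**
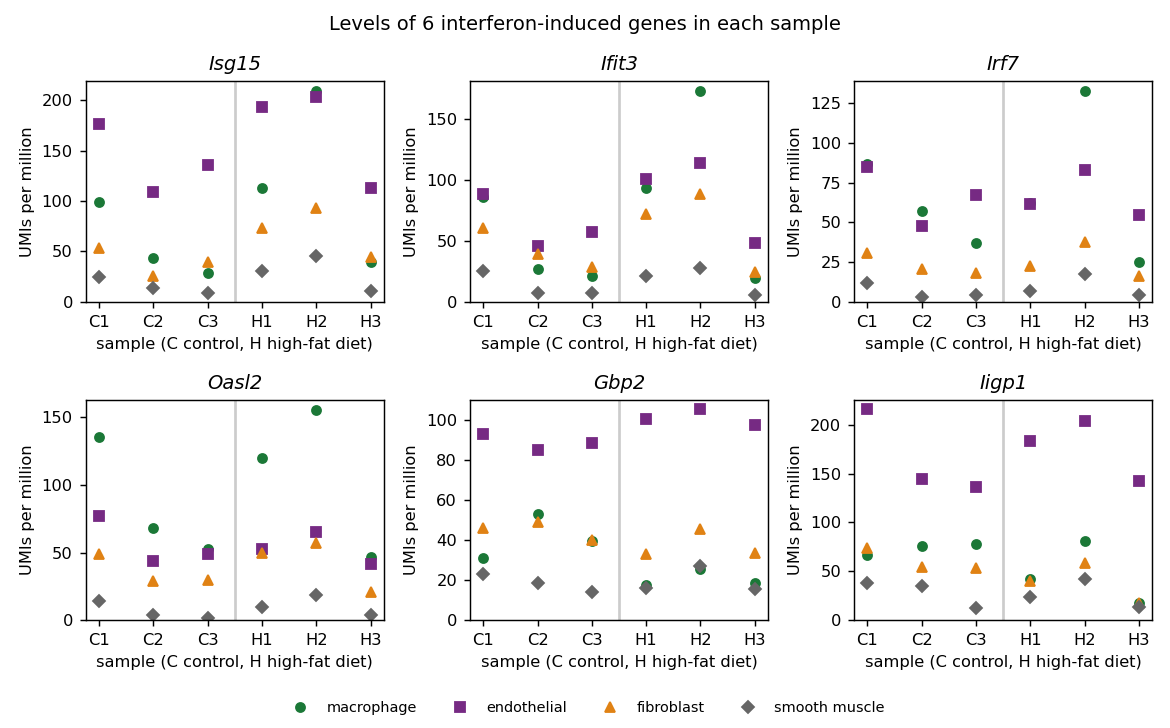
CPM (y axis) of 6 interferon-induced genes in each of the 6 samples (x axis; C control, H high-fat diet) in 4 cell types (symbols), 1 value per sample and type. In macrophages Isg15, Ifit3, Irf7 and Oasl2 are high in control 1 and high-fat samples 1 and 2 and low in high-fat sample 3, whereas Gbp2 in macrophages is lower in all 3 high-fat samples.

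Within these 3 samples the excess lay in the cells of well 1. In macrophages the 29-gene sum was 1748 in well 1 and 591 in well 2 of control 1, a ratio of 2.96. It was 2373 against 867 in high-fat sample 1 (2.74) and 2875 against 824 in high-fat sample 2 (3.49). In the other samples the ratio of well 1 to well 2 was 0.719 (control 2), 0.750 (control 3) and 1.01 (high-fat sample 3). Well 2 ranged from 591 to 1033 over all 6 samples, and well 1 from 642 to 2875.

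The shift between wells ran through nearly the whole list. In macrophages of control 1, 27 of the 27 genes with at least 60 UMIs over both wells were higher in well 1, with a median log2 ratio of 1.38 against -0.09 for all genes. In high-fat samples 1 and 2, 25 of 27 were higher, with medians of 1.38 and 1.58 against -0.04 and 0.06. In control 2, 5 of 28 were higher, and in control 3 and high-fat sample 3 it was 8 of 23 each. The medians in these 3 samples were -0.25, -0.14 and -0.29, against 0.07, 0.03 and 0.03 for all genes. Isg15 in macrophages stood at 124 in well 1 and 10.5 in well 2 of control 1, at 200 and 52.4 in high-fat sample 1, at 302 and 52.6 in high-fat sample 2, and between 20.4 and 46.8 in every well of the other samples.

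Other cell types repeated it. The ratio of well 1 to well 2 in fibroblasts was 2.39, 2.15 and 2.84 in control 1 and high-fat samples 1 and 2, and 0.689, 1.16 and 1.13 in control 2, control 3 and high-fat sample 3. In smooth muscle cells the same ratios were 1.77, 2.01 and 3.00, and 0.617, 0.806 and 1.21. In endothelial cells they were 2.01, 2.55 and 1.24, and 0.957, 1.51 and 1.07, so well 1 of control 3 was also raised there. Over wells with at least 20 cells, the highest 3 were well 1 of control 1 and of high-fat samples 1 and 2 in 7 of the 11 cell types.

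**Figure D4:**
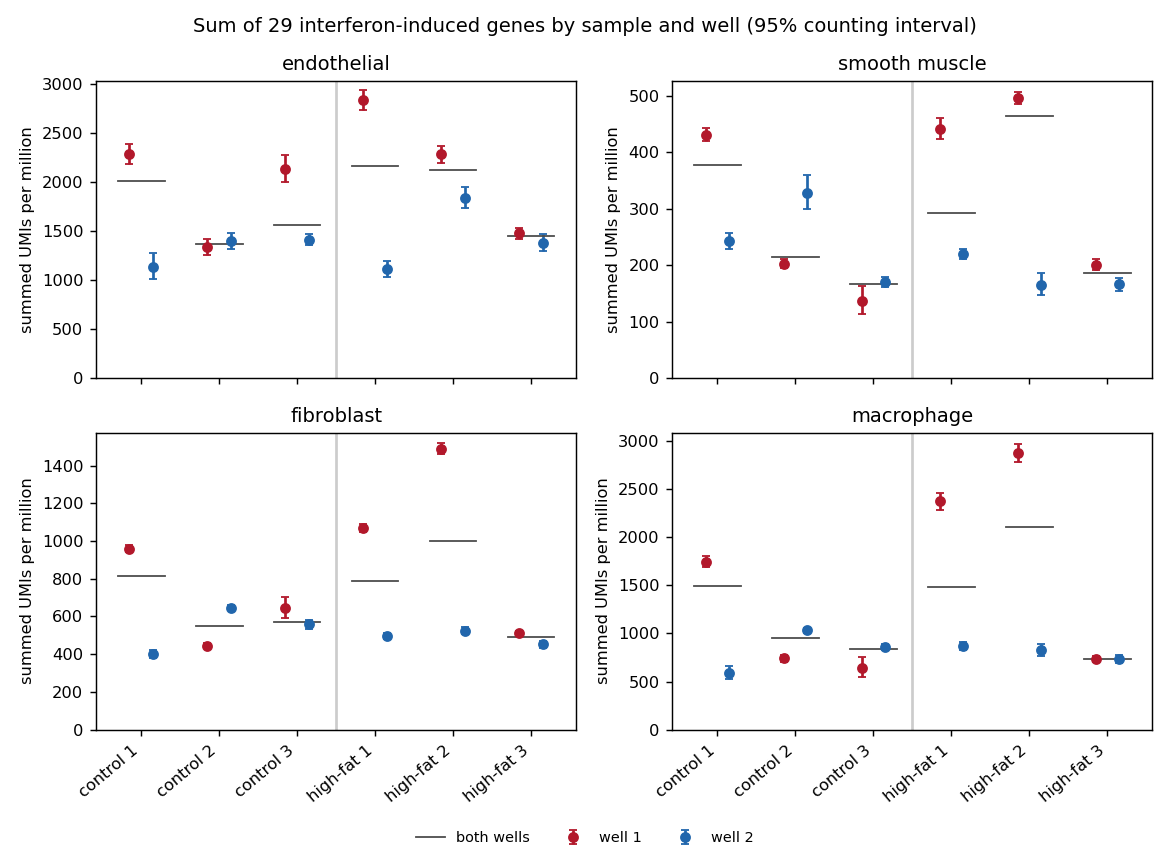
Summed level in CPM of 29 interferon-induced genes (y axis) by sample (x axis) in 4 cell types, for well 1 (red), well 2 (blue) and both wells together (line), with 95% counting intervals that cover counting error only. Well 1 of control 1 and of high-fat samples 1 and 2 stands well above well 2 in macrophages, fibroblasts and smooth muscle, by 1.77 to 3.49 times; the remaining smooth muscle wells run from 137 to 328, and well 1 of control 3 is also high in endothelial cells.

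Markers of other cells also differed between these samples, and their part in the pattern was not tested. The 8 smooth muscle markers, none of them at 0, summed in macrophages to 3529, 398 and 834 CPM in the controls and 2616, 3810 and 1527 on high-fat diet, the same 3 samples highest. By well they stood at 5641 in well 1 and 725 in well 2 of high-fat sample 2, the same way as the interferon-induced genes, at 1078 and 3675 in high-fat sample 1, the other way, and at 3483 and 3694 in control 1. Smooth muscle cells themselves held 167 to 465 CPM of the 29 genes, below every macrophage sample. The 6 cardiomyocyte markers summed in macrophages to 669, 283 and 323 in the controls and 851, 670 and 66.0 on high-fat diet, again with the 3 samples highest. By well they stood at 641 and 767 in control 1, 1109 and 673 in high-fat sample 1, and 895 and 292 in high-fat sample 2. The cells gated as cardiomyocytes held 363 CPM of the 29 genes. Depth also differed: the median was 6644 UMIs per cell in well 1 of control 1, against 4475 in well 2. In macrophages the medians in wells 1 and 2 were 4203.5 and 2901 in control 1. They were 3795 and 2676 in high-fat sample 1, and 4725 and 2392.5 in high-fat sample 2, so well 1 was deeper in each. Control 2 had 3222 and 3689, control 3 had 3988 and 3780, and high-fat sample 3 had 2904 and 2601. The part of depth in the pattern was not tested.

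The GTPases and Irf1 shared the pattern in few cell types. Summed over Irf1, Gbp2, Gbp3, Igtp and Iigp1, macrophages gave 208, 255 and 242 CPM in the controls and 143, 214 and 122 on high-fat diet. The 3 samples named above were the highest for this sum in 2 of 11 cell types, against 9 of 11 for the 29 genes, which include the 4 GTPases. Gbp2 in macrophages stood at 36.7 and 12.2 in wells 1 and 2 of control 1, at 24.8 and 64.8 in control 2, at 4.09 and 42.5 in control 3, at 19.8 and 16.4 in high-fat sample 1, at 22.3 and 31.3 in high-fat sample 2, and at 15.8 and 24.4 in high-fat sample 3. For Gbp2 in macrophages, well 1 was therefore the higher in some samples and the lower in others, and well 1 of control 3 held 57 macrophages. For the sum with Irf1, well 1 of control 1 and of high-fat samples 1 and 2 were the highest 3 wells in 2 of 11 types. These were endothelial and lymphatic endothelial cells, against 7 of 11 types for the 29 genes. In endothelial cells it stood at 573 in well 1 and 239 in well 2 of high-fat sample 1. In macrophages of control 1 it stood at 241 and 90.7.

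No interferon-induced gene differed between the diets past the threshold in any of the 11 cell types, by edgeR's quasi-likelihood test or by DESeq2. At an unadjusted edgeR p under 0.05 there were 4 of 31 genes in endothelial cells, 2 of 31 in smooth muscle cells, 3 of 34 in fibroblasts and 2 of 34 in macrophages. Over all genes that share was 13.8%, 9.54%, 11.5% and 8.26%, and the share called after adjustment was 0.3%, 0.0%, 0.0507% and 0.0%. Most differences were positive, 22 of 31 in endothelial cells and 26 of 31, 26 of 34 and 26 of 34 in the other 3 types, with medians of 0.20, 0.31, 0.22 and 0.31 against -0.00, -0.02, -0.00 and -0.02 for all genes. The genes share the sample pattern above and are not independent of each other.

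In 3 of these 4 types the sign of the median depended on the well. With the cells of well 1 alone, 31 of 34 differences in macrophages were positive (median 0.64), and with well 2 alone 10 of 32 were (median -0.12). In fibroblasts the count was 26 of 33 (0.52) in well 1 and 12 of 30 (-0.09) in well 2, and in smooth muscle cells 29 of 30 (0.37) and 10 of 26 (-0.14). Endothelial cells kept a positive median in both, at 0.25 with 23 of 31 positive and 0.02 with 16 of 28. No listed gene passed the threshold in either well in these 4 types.

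**Figure D5:**
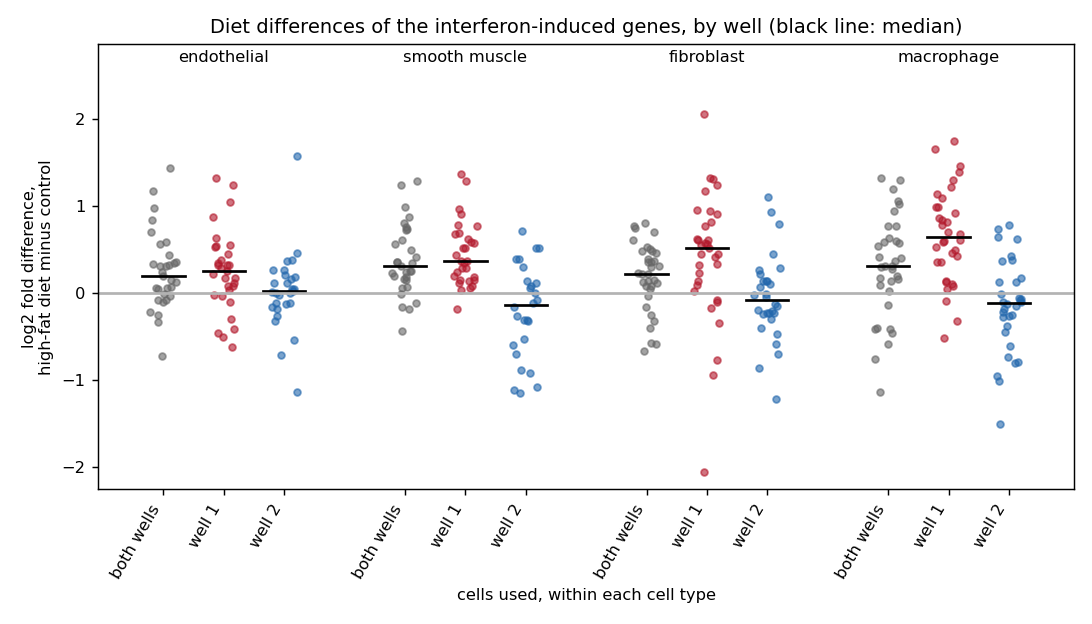
Log2 difference of each interferon-induced gene (high-fat diet minus control, y axis) in 4 cell types, fitted with both wells (grey), well 1 (red) or well 2 (blue); black lines are medians. In macrophages the median is 0.31 with both wells, 0.64 in well 1 and -0.12 in well 2.

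In endothelial cells the smallest p belonged to a pair of oligoadenylate synthetases and an RNA sensor. Oas1a stood at 10.3, 8.58 and 8.04 CPM in the controls and 22.8, 22.7 and 16.9 on high-fat diet, with every high-fat sample above every control. Its log2 difference was 1.17 (SE 0.24, edgeR adjusted p = 0.0866), and it ranged in adjusted p from 0.0124 to 0.456 over the alternatives. Oas2 stood at 13.1, 7.36 and 2.84 against 23.8, 16.7 and 17.9 (1.44, SE 0.39, edgeR adjusted p = 0.176), and Ifih1 at 41.0, 16.6 and 23.2 against 56.7, 43.7 and 42.7 (0.84, SE 0.26, edgeR adjusted p = 0.233). These 3 genes passed without control 1 and with no filter on low counts, so the call rests on that sample and that filter. In level, Oas1a and Oas2 were highest in macrophages and Ifih1 in mesothelial cells. DESeq2 gave Oas1a and Oas2 no adjusted p.

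Of the other endothelial genes by smallest p, Ifit2 (log2 difference 0.70, edgeR adjusted p = 0.299), Xaf1 (0.35), Irf9 (0.32) and Oasl1 (0.98) had positive differences with overlapping groups. Irf1 had a negative one, at 77.4, 70.5 and 77.6 against 46.1, 67.5 and 69.9 (-0.34, SE 0.17, edgeR adjusted p = 0.413). In all, 6 genes had every high-fat sample above every control and 1 every one below, where 10.9% and 8.36% of all endothelial genes did. Oas3, Mx1 and Cxcl10 were too sparse in endothelial cells to test.

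In macrophages the smallest p belonged to genes that were lower on high-fat diet. Gbp2 stood at 31.3, 53.3 and 39.7 CPM in the controls and 17.8, 25.7 and 18.8 on high-fat diet, without overlap (log2 difference -1.14, SE 0.27, edgeR adjusted p = 0.441). Irf1 stood at 41.7, 47.6 and 61.4 against 29.1, 36.4 and 41.5 (-0.58, SE 0.21, edgeR adjusted p = 0.519), and Gbp3 at 29, 32.3 and 29 against 19.1, 28.5 and 25.2 (-0.42, SE 0.19). Without control 1, Gbp2 (-1.35, edgeR adjusted p = 0.0138) and Irf1 (-0.74, edgeR adjusted p = 0.0473) passed. Genes without overlap numbered 0 higher and 3 lower in macrophages, where 9.27% and 5.32% of all genes did so. Ddx60 also had a negative difference (-0.41, SE 0.18), which was 0.12 in the cells of well 1.

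Macrophage Usp18, the brake on type I signalling, stood at 20.3, 11.5 and 8.89 in the controls and 43.3, 49.9 and 12 on high-fat diet. The first 2 high-fat samples were above all controls and the third was not (log2 difference 1.29, SE 0.58, edgeR adjusted p = 0.614). Isg15 followed the same order, at 99.0, 43.2 and 29 against 113, 209 and 39.7 (1.02, SE 0.72, edgeR adjusted p = 0.723). Oas1a (0.76), Ddx58 (0.58) and Oas2 (0.54) likewise overlapped between diets.

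Fibroblasts and smooth muscle cells also had mostly positive, uncalled differences. In fibroblasts Oas1a stood at 4.89, 3.20 and 3.01 against 6.61, 6.85 and 5.20 (log2 difference 0.70, SE 0.22, edgeR adjusted p = 0.348), and Irf1 at 28.3, 28.1 and 43.8 against 20.3, 25.6 and 23.4 (-0.57, SE 0.21, edgeR adjusted p = 0.382). Neither pair of groups overlapped, making 1 gene higher and 1 lower, where 9.64% and 7.41% of all genes did so. Isg15 (0.81), Cmpk2 (0.36), Rsad2 (0.76) and Ifit1 (0.75) had positive and Gbp2 (-0.33) and Iigp1 (-0.67) negative differences that overlapped. In smooth muscle cells Ifit2 stood at 10.6, 5.25 and 5.36 against 11.3, 11.7 and 12.3 (0.73, SE 0.24, edgeR adjusted p = 0.466), the only listed gene there with all high-fat samples above the controls, where 6.41% of all genes were above and 9.05% below. Rsad2 (1.24), Ifit1 (1.28), Oas1a (0.98), Isg15 (0.87), Bst2 (0.36) and Ifitm2 (0.16) had positive differences there and Irf1 a negative one (-0.43), all with overlap.

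By role, the effectors that act on RNA and the GTPases differed in sign. All 10 tested effectors had positive diet differences in macrophages (median log2 difference 0.69) and in fibroblasts (0.48), as did 9 of 9 in smooth muscle (0.73) and 7 of 9 in endothelial cells (0.43). The 4 GTPases were negative in macrophages (median -0.61) and fibroblasts (-0.37), and 3 of 4 were negative in smooth muscle (-0.06), while 3 of 4 were positive in endothelial cells (0.06). None of these was called. Irf1 was negative in all 4 types. The 6 B-cell markers, none at 0 in macrophages, summed there to 24.1, 86.1 and 318 CPM in the controls and 40.7, 28.9 and 28.1 on high-fat diet. In fibroblasts they summed to 11.7, 64.9 and 218 against 34.7, 8.05 and 13.1, so controls 2 and 3 were highest in both types. Their part in the GTPase and Irf1 differences was not tested.

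Whether the diet difference itself varied between the 4 main cell types was tested with edgeR across all of them. None of the 34 genes passed, and 4 (Gbp2, Ddx58, Ifitm1 and Rsad2) had an unadjusted p under 0.05, where 3.95% of all genes did. Gbp2 had the smallest p of these (adjusted p = 0.767 with edgeR). Without control 1, Gbp2 and Ifitm1 passed, in a fit that called 108 of 13550 genes, against 0 of 13556 with all samples.

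Among the rarer types, no difference was called, and the sign varied by type. Positive differences numbered 27 of 29 in mesothelial cells, 20 of 21 in B cells, 8 of 9 in erythroid and 10 of 15 in lymphatic endothelial cells (median 0.27), but 6 of 14 in T cells (-0.07), 5 of 10 in pericytes (-0.05) and 6 of 10 in Schwann cells (0.12). In mesothelial cells the median was 0.33 and 6 had an unadjusted p under 0.05, where 9.59% of genes did. There 5 genes, Ifih1, Oas1a, Ifi44, Cmpk2 and Parp14, had every high-fat sample above every control, where 9.06% of all genes did and 6.79% were below. Mesothelial Oas1a stood at 14.9, 12 and 4.42 CPM in the controls and 31.7, 24.3 and 38.0 on high-fat diet (log2 difference 1.56, SE 0.37, edgeR adjusted p = 0.164). In B cells the median was 0.70 and 9 had an unadjusted p under 0.05, where 17.7% of genes did; control 1 had only 21 B cells. B-cell Isg15 stood at 40.9, 9.12 and 12.2 in the controls and 30.4, 42.4 and 14 on high-fat diet. The share of all genes called after adjustment was 1.18% in B cells, 0.143% in mesothelial, 0.605% in lymphatic endothelial, 0.526% in pericyte, 0.198% in Schwann, 0.136% in T and 0.0604% in erythroid cells.

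Other genes of the pathway were followed by lists. Of 46 further interferon-induced genes typical of type I interferon, 43 were tested in macrophages, with 31 positive and 12 negative diet differences (median 0.24). Of 31 typical of type II interferon, 27 were tested, with 2 positive and 25 negative (median -0.29), and in fibroblasts 6 were positive and 21 negative (-0.29). Controls 2 and 3 also had the highest B-cell marker sums in both types, given above, and the part of these in the list's differences was not tested. The same list gave 12 positive and 14 negative in endothelial cells (-0.04). No gene of these lists rose or fell past the threshold in any of the 4 main types.

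In macrophages the genes of each list with the smallest p had the sign of their list. The GTPase Gbp7 had a log2 difference of -0.55 (SE 0.14, edgeR adjusted p = 0.459) and the transcription factor Batf2 -0.99 (SE 0.31), while the type I genes Herc6 (0.97, SE 0.25) and Slfn9 (1.80, SE 0.54) were positive. In endothelial cells Tgtp2, an IRG-family GTPase, had a difference of 1.31 (SE 0.30, edgeR adjusted p = 0.123), and Slfn5 0.65 (SE 0.16, edgeR adjusted p = 0.158), whereas the T-cell attractant Cxcl9 had -0.88 (SE 0.28). In fibroblasts the peptide transporter Tap1 (-0.49, SE 0.13) and the immunoproteasome subunit Psmb9 (-0.73, SE 0.20) had negative differences. By the summed CPM of each list, the 3 high samples led for the type I list in 8 of 11 cell types and for the type II list in 0 of 11. Abundant genes were not left out of these sums and weigh most in them.

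None of the receptors and signal carriers was called. Of 12 listed, 11 were tested in each main type, with 0 called and medians between -0.00 and 0.11. Among the inhibitors, Socs3, a feedback blocker of STAT signalling better known for acting on IL-6 receptors, stood at 31.1 ± 2.84 CPM in control and 66.9 ± 9.95 in high-fat macrophages (SD, n = 3 each; log2 difference 1.02, SE 0.17, unadjusted p = 0.000196, edgeR adjusted p = 0.337). Ptpn6, a phosphatase of blood cells, had -1.50 (SE 0.42) in endothelial cells, where the 6 B-cell markers also ran from 28.0 to 195 CPM in controls and from 7.02 to 41.9 on high-fat diet; their part in it was not tested. The sensing list had 0 of 14 to 20 tested genes called in each type, and Ifi204 in macrophages had 0.78 (SE 0.33).

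The interferons themselves were almost undetected. Ifnb1, Ifna1, Ifna2, Ifna4, Ifna5, Ifnl2, Ifnl3 and Ifne had no UMI in any of 58034 cells, and Ifnk had UMIs in 2. A count of 0 in that many cells allows a share with a UMI of up to 0.00517%. Ifng was found in 140 cells (0.241%), of which 71 were among 1838 T cells (3.86%) and 20 among 168 NK cells (11.9%), against 0 of 2450 endothelial cells (a share of up to 0.122%). By sample, 8.33%, 1.87% and 5.19% of control T cells and 4.04%, 2.76% and 9.42% of high-fat T cells held Ifng. The diets overlapped, and high-fat sample 3, lowest in the 29-gene sum in macrophages, had the highest share in T cells. In NK cells, with 9 to 59 cells a sample, the shares were 5.26%, 15.4% and 13.6% in controls and 11.8%, 8.33% and 0% on high-fat diet, where high-fat sample 3 had 0 of 9 cells, which allows a share of up to 33.3%.

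The genes were also counted cell by cell. Each cell was thinned to 1000 UMIs, and cells with at least 4 of the 29 genes were counted as interferon-high, a range and not a cell type. In endothelial cells they made up 13.4%, 6.51% and 8.97% in the controls and 15.1%, 14.9% and 10.3% on high-fat diet. In macrophages they were 7.81%, 3.49% and 3.04% against 10.5%, 15.2% and 2.21%, so that the third high-fat sample was again the lowest. In fibroblasts the share was 1.52% ± 0.633 in controls and 2.75% ± 1.73 on high-fat diet (SD, n = 3), and in smooth muscle cells 0.235% ± 0.256 and 0.257% ± 0.279. B cells, which hold these genes at a low level, gave 0% to 0.529%, with 0 of 21 cells in control 1, which allows up to 14.3%. The median depth before thinning was 2481 UMIs in B cells and 3474.5 in endothelial cells.

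An exact two-sided permutation test of the shares between diets cannot go below p = 0.1 with 3 against 3 samples, so it could not reach 0.05 and says nothing on whether they differ. The p was 0.2 in endothelial cells, 0.4 in macrophages, 0.4 in fibroblasts and 0.8 in smooth muscle cells (adjusted over the 4 types 0.533, 0.533, 0.533 and 0.8). Without thinning, the difference between diets turned negative in endothelial cells (-3.10 percentage points) and macrophages (-0.967); control 1 had the most UMIs per cell. With all UMIs, 58.2% of control and 55.1% of high-fat endothelial cells held at least 4 of the genes.

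Outside all lists, the genes whose levels followed the listed ones most closely were sought by Pearson correlation with their mean log2 level over the 24 sums of sample and main cell type, after each type's mean was taken off. These sums share wells, depth and free RNA, so the correlations are descriptions. The 10 closest of 6295 genes were Trim12a (r = 0.87), a TRIM-family gene, Gm26699 (0.86), Tnnc1 and Csrp3 (0.85 each), Mnda (0.84), Map1lc3b (0.84), Scgb3a1 (0.83), the chemokines Ccl8 (0.83) and Ccl12 (0.82), and Serpina3n (0.81). Tnnc1 and Csrp3 are heart muscle genes and Scgb3a1 an airway secretory gene. Of the 30 closest genes, 21 were on the lists, which include the cell-type markers, led by Ifit3 (0.96), Ifit1 (0.96) and Rtp4 (0.94). Among the 21 were also the cardiomyocyte markers Myh6 (0.86) and Tnnt2 (0.84), and Cox6a2 (0.86), listed as a marker of plasmacytoid dendritic cells. The interferon-induced genes are part of the mean they were set against, so their high ranks were partly built in.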

How the data were processed

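Cells were freed from the tissue by collagenase (0.2%) and DNase (200 U/ml) within 30 min, passed through a 40 μm filter, cleared of red cells and tagged at the 3′ end with version 2 gel beads, per the labels' protocols. The authors deposited UMI counts per gene and cell, not normalized; Cell Ranger 3.0 and mm10 are named in the submitters' processing notes, and how cells were called is not given in the sources used here. Free RNA was not removed.

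Cells with at least 300 genes and under 20% mitochondrial counts were kept (59413 of 62838), and 1379 (2.32%) with a Scrublet score above 0.25, scored per well at an expected rate of 0.06 (scanpy 1.11.5), were left out as doublets. A cell was given a type when its mean scaled marker score was at least 0.3, led by 0.1 and rested on at least 3 markers; this scoring rule was set after the data were seen, and 5950 cells stayed without a type. Counts were summed per sample and type, since cells are not replicates. Levels are such sums as CPM, without the TMM factors of the tests. Differences were tested with edgeR 4.0.16 (TMM, filterByExpr, robust quasi-likelihood; R 4.3.3), with Benjamini-Hochberg adjustment over all genes at 0.05; DESeq2 1.42.0 was an alternative. A gene can pass the filter on low counts through the group where it is high. The well ratio used genes with at least 60 UMIs over both wells and a pseudocount of 0.5 UMI. Permutation tests were exact and two-sided, and counting intervals (95%) cover counting error only.

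The listed genes, the pathway lists and the markers were chosen with earlier results of these data known. In each main cell type, the 8 listed genes with the smallest p were named, and 2 of each pathway list were eligible. On simulated counts, 75%, 51%, 64% and 63% of 2-fold changes were recovered in endothelial cells (10350 genes), smooth muscle cells (13556), fibroblasts (13814) and macrophages (10894). False calls numbered 15, 12, 14 and 15. No share is given for the listed genes alone, so these figures do not give their recovery. Trac, Trbc2, Ighd, Ighm, Igha, Iglv1 and Cnmd among the markers and Oas1b and Cxcl11 among the lists are not analysed here, and a further gene of the pathway lists is not reported here. Loci followed GENCODE M21 on GRCm38.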

Additional observations from a re-analysis of the deposited data

How the results depend on the processing

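The count of interferon-induced genes called between diets stayed at 0 in the 4 main cell types with median-of-ratios size factors, DESeq2, kept doublets, stricter cell filters, 1 more marker, single wells, and capillary, arterial or resident macrophage cells alone (the last 3 chosen after seeing the data). In endothelial cells it was 3 with no filter on low counts (220 genes called in all, against 31), and 0 to 3 with each sample left out. It was 0 to 2 in macrophages, 0 to 7 in the other types and 0 to 2 for the difference between types, and most of these calls came without control 1: Oas1a, Oas2 and Ifih1 in endothelial cells (445 genes called), Gbp2 and Irf1 in macrophages (534 genes), Ifit1, Isg15 and Xaf1 in B cells, Ifitm3 and Igtp in T cells and Isg15 and Rsad2 in erythroid cells. Without high-fat sample 3, Xaf1 in B cells and Usp18 in lymphatic endothelial cells passed. For the B, T, erythroid and lymphatic endothelial fits with a sample left out, the share of all genes called is not given here. Whether these calls set the listed genes apart from other genes was not tested. With well 2 alone the sign turned for endothelial Irf9 (-0.11), smooth muscle Bst2 (-0.084), fibroblast Rsad2 (-0.59) and fibroblast Ifit1 (-0.23), and with well 1 alone for macrophage Ddx60 (0.12). The share of interferon-high cells turned negative without thinning (-3.10 in endothelial cells, -0.967 in macrophages) and, in smooth muscle, ranged from -0.127 to 0.158 with each sample left out. Over all genes, DESeq2 called 69, 97, 209 and 30 in endothelial, smooth muscle, fibroblast and macrophage cells, against 31, 0, 7 and 0 by edgeR. The causes were not tested.

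Samples of the 2 diets share replicate numbers, and the labels do not say whether these numbers pair them. Same-numbered samples deviated together in some cases and not in others. For numbers 1 and 3, r was -0.11 and 0.04 in endothelial cells and -0.09 and 0.37 in smooth muscle cells. Differently numbered samples could also deviate together over all tested genes. Control 1 and high-fat sample 2 had r of 0.21, 0.46, 0.31 and 0.35 in endothelial, smooth muscle, fibroblast and macrophage cells. In the same order, control 1 and high-fat sample 1 had -0.11, -0.09, -0.02 and -0.06. With 3 samples a diet these values cannot settle whether the samples are paired, and the main fits did not pair them. With the replicate block, 0 listed genes were called and the count over all genes went from 31 to 0 in endothelial cells and from 7 to 0 in fibroblasts. With 3 samples a diet, well 1 of control 3 at 624 cells and types with as few as 21 cells in a sample, depth limits what could be called.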
